A study of Mus musculus with 6 samples.

Results

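The interferon regulatory factors are a family of transcription factors, and 8 of them, Irf1, Irf2, Irf3, Irf4, Irf5, Irf7, Irf8 and Irf9, were followed here in mouse leukemias. They were taken by symbol: all probe sets annotated to 1 of these symbols alone were used, which gave 14 of the 45037 probe sets that were not array controls. With 1 probe set per gene, the brightest by mean log2 intensity over the arrays, they made up 8 of 18193 genes. All 6 leukemias arose from bone marrow of the C57BL/6 strain that had been given MLL-ENL, a leukemogenic fusion protein, and transplanted into congenic mice, and cells were taken when the recipients were moribund. In 3 of them, labelled Runx1-KO, the marrow carried an excised gene for the blood transcription factor Runx1, and in 3, labelled Control, Runx1 was intact. The sources used here name neither the agent that excised Runx1 nor the age and sex of the animals. Each array came from an independent leukemia, so the number of leukemias, 3 per group, limits the precision of every value below.

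Interferon regulatory factors share an N-terminal DNA-binding domain with a repeat of conserved tryptophans, through which they bind GAAA-type elements. Irf3, Irf5 and Irf7 wait in the cytoplasm until nucleic acid or Toll-like receptor signals lead to their phosphorylation, Irf9 acts downstream of the type I interferon receptor, and Irf1 and Irf2 compete for the same sites as activator and mostly repressor. Irf4 and Irf8 bind DNA weakly alone and act with partners such as PU.1. In bone marrow Irf8 directs progenitors towards monocytes and dendritic cells and away from neutrophils.

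Several properties of the arrays touch all comparisons below. Median intensity ranged from 24.4 to 26.0, and the background limit, taken as the brightest of 27 dim probe sets for Bacillus spike-in transcripts and set after the data were seen, ranged from 14.1 to 22.5. The intensity of Runx1 itself was 1127.7, 1572.8 and 1629.5 in Runx1-KO-labelled arrays, against 680.3, 1021.5 and 850.0 in Control. Whether its probes lie in the excised part is not known from the sources used here, so this does not check the labels. Eif2s3y, a Y-linked gene, lay between 3.98 and 6.31 in Runx1-KO-labelled arrays, against values between 638.0 and 706.7 in Control, so sex and genotype cannot be told apart. Xist, a gene expressed in female cells, read 1624.2, 1856.6 and 1894.7 in Runx1-KO-labelled arrays, against 330.8, 85.4 and 25.3 in Control. The origin of the Xist signal in Control 1 was not tested. Control 1 had a summed intensity of 9827.0 over 13 erythroid marker genes, where the remaining 5 arrays had 878.4 to 1319.4, and Gapdh signal at the 3' end over that at the 5' end, which rises as RNA degrades, stood at 7.10 in Runx1-KO 1, with 2.67 to 3.02 elsewhere.

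No interferon regulatory factor passed the threshold, an adjusted p under 0.05 over all genes, but 4 of the 8 were lower in every Runx1-KO-labelled array than in every Control array. These were Irf2, Irf8, Irf3 and Irf9, by 3.36-fold, 2.46-fold, 2.04-fold and 1.77-fold. The groups overlapped in Irf1, Irf4 and Irf5, with differences close to 0, and Irf7 was near or below background. In limma's moderated test 0 of 8 genes passed, where 0.0879% of all genes did, and the lowest adjusted p was 0.195, that of Irf2. At an unadjusted p under 0.05 there were 4 lower and 0 higher members, against 7.01% of all genes lower and 5.62% higher. The number of members at that p was 3 without Control 1, without Runx1-KO 2, without Runx1-KO 3 or without both arrays numbered 1. It was 5 with the replicate number fitted as a block. Groups without overlap, with Runx1-KO-labelled arrays lower, were seen in 11.7% of all genes, and in the other direction in 9.17%, where no member stood. The median log2 difference, Runx1-KO minus Control, was -0.82 over the 8 members and -0.008 over all genes. The median of the members lies between the values of Irf9 (-0.83) and Irf7 (-0.81), so it rests in part on a gene near or below background. Over all 14 probe sets 0 passed (0.0688% of all probe sets did, lowest adjusted p of a member 0.234 in limma), and 6 were lower without overlap, against 10.6% of all probe sets. These 6 read the same 4 genes on the same arrays, so they are no separate result.

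**Figure D1:**
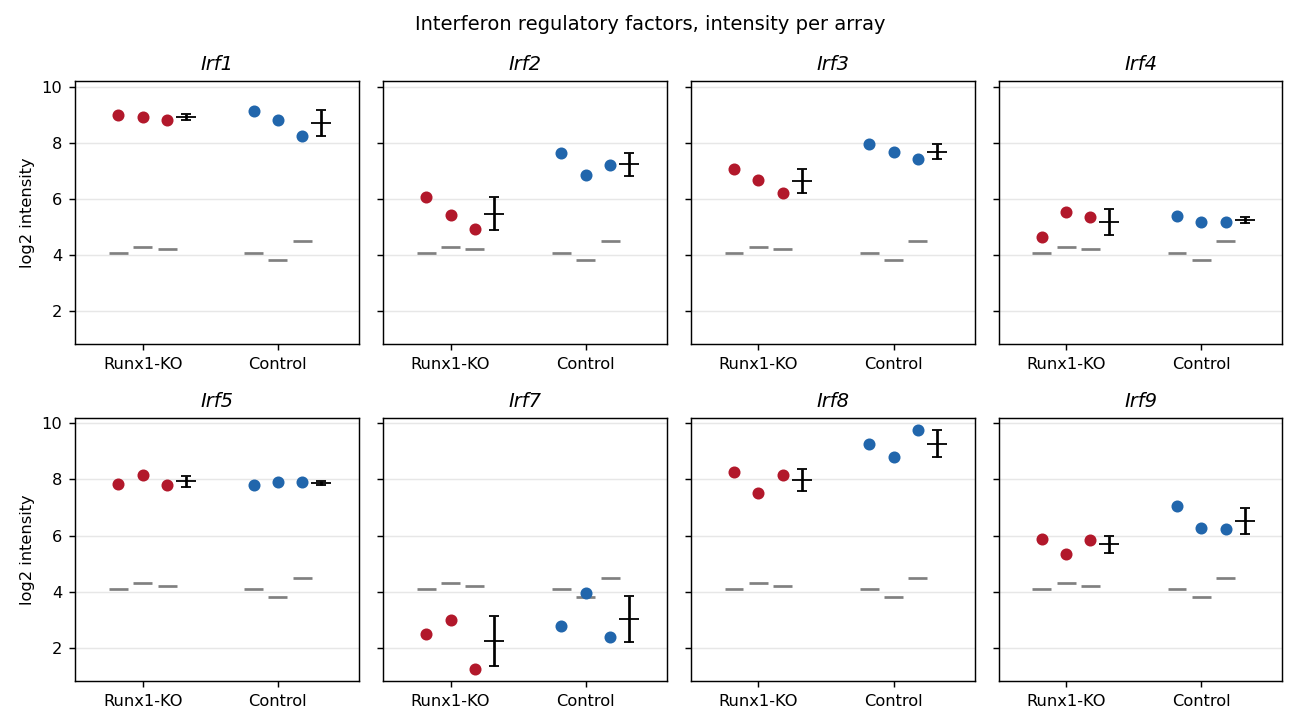
Log2 intensity of the 8 members in each array, 1 probe set per gene, for the 3 Runx1-KO-labelled arrays (red) and the 3 Control arrays (blue), in the order of their replicate numbers. Black marks give the mean ± SD of a group and grey dashes the background limit of each array. The groups are apart in Irf2, Irf3, Irf8 and Irf9, and Irf7 lies at or near background.

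Irf8 was lower in Runx1-KO-labelled arrays on both of its probe sets. Its brighter probe set had an intensity of 309.4, 182.9 and 284.2 in Runx1-KO-labelled arrays, against 617.1, 441.9 and 873.9 in Control. The highest Runx1-KO-labelled array thus stayed below the lowest Control array, and all 6 lay well above the background limit. The log2 difference was -1.30 ± 0.34 (SE, n = 3 per group), with a limma adjusted p of 0.250. An exact two-sided permutation test over the 20 assignments of arrays gave p = 0.1, the lowest p that this design of 3 and 3 arrays can reach. The dimmer probe set read 117.8, 169.1 and 160.4 in Runx1-KO-labelled arrays, against 348.2, 260.9 and 494.3 in Control, a log2 difference of -1.27 ± 0.31, so both probe sets differed by about the same amount. Within Control, array 3 was the highest on both. In bulk RNA a smaller share of cells that express Irf8 and less Irf8 RNA per cell cannot be told apart.

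The sequence before the start site of Irf8 is shown because both of its probe sets were lower, together with that of Irf1, which carries the same kind of element and whose groups overlapped. Capitals mark matches to TTCNNNGAA, the gamma-activated site, and both windows run from 250 bases before the start site to 50 after it (RefSeq, GRCm38.p6, 5′ to 3′).
Irf8, chr8:120736108-120736407, plus strand: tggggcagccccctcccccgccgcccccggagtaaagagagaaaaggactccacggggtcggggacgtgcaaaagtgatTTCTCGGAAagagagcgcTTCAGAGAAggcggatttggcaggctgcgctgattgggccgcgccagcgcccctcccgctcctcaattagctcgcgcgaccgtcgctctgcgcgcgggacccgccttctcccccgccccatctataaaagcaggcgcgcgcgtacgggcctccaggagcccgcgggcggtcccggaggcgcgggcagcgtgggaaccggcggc
Irf1, chr11:53769764-53770063, plus strand: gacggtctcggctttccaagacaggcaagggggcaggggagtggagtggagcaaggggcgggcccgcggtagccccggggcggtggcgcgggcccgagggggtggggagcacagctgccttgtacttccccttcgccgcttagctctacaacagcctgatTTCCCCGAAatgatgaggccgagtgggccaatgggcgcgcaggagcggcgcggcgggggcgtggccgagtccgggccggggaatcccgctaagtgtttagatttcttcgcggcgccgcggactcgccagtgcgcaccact
The Irf8 window held 2 matches, TTCTCGGAA starting at position -171 and TTCAGAGAA at -153, and the Irf1 window 1, TTCCCCGAA at -90, counted from the start site. This element was present in 8.30% of all 32851 promoter windows of that length, searched on both strands with a palindromic match counted once. The second annotated start of Irf8 had no such match and 1 match to the RUNX motif, searched as TGTGGT or TGCGGT. That motif was present in 22.4% of all windows and in 3 of the 11 windows of the 8 members. These are matches of letters and not measured binding sites.

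Irf4, the closest relative of Irf8 and best known in lymphocytes and plasma cells, was dim and overlapped between the groups. Its intensity was 25.2, 45.7 and 40.4 in Runx1-KO-labelled arrays, against 41.5, 35.9 and 36.4 in Control, and every Control value lay within the range of the other group. The log2 difference was -0.07 ± 0.27 (limma adjusted p = 0.937), with a 95% interval from -0.72 to 0.58, not adjusted for the number of genes. It turned to 0.18 without Runx1-KO 1, the array with the lowest value. Its other probe set was above the background limit in 0 of 3 Runx1-KO-labelled arrays and in 1 of 3 Control arrays.

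Irf2 differed most among the 8. Its intensity was 67.8, 43.3 and 30.05 in Runx1-KO-labelled arrays, against 199.4, 114.4 and 147.0 in Control. All arrays were above background and the groups did not overlap. The log2 difference was -1.75 ± 0.37 (SE, n = 3 per group), which ranked 255 of 18193 genes by p, with a limma adjusted p of 0.195 and an exact two-sided permutation p of 0.1. It was -1.54 without Control 1 and -2.05 without Runx1-KO 1. Irf2 was measured by 1 probe set, so no other probe set could be set beside it.

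The start region of Irf2 is shown because it holds interferon-type elements of its own. Capitals mark matches to the core of the interferon-stimulated response element (GAAA, any 2 bases, GAAA), to the composite element that ETS factors such as PU.1 share with Irf4 or Irf8 (GGAA, any 2 bases, GAAA), and to the gamma-activated site.
Irf2, chr8:46739495-46739794, plus strand: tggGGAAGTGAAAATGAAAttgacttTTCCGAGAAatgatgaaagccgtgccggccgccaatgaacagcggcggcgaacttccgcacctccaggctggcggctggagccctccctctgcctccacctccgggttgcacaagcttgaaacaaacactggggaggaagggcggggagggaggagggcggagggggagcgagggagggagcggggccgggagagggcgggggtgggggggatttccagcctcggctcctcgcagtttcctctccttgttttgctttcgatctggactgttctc
GGAAGTGAAA began at position -247, GAAAATGAAA overlapped it from -241, and TTCCGAGAA began at -224. The response element was present in 3.44% of all windows and the composite element in 2.72%, and Irf2 was the only 1 of the 8 members with either. No member window held GAGGAAGT, a PU.1 motif present in 3.20% of all windows.

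Irf1, which activates antigen presentation genes after interferon gamma, did not follow Irf2. It read 511.6, 485.5 and 443.3 in Runx1-KO-labelled arrays, against 564.5, 444.6 and 299.1 in Control. Control held both the highest and the lowest value, and the log2 difference was 0.18 ± 0.27 (limma adjusted p = 0.816, 95% interval -0.47 to 0.84). The sign rested on Control 3, without which it was -0.06.

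Irf3, which switches on the interferon beta gene after viral nucleic acid is sensed, gave different answers on its 4 probe sets. The one with the highest mean log2 intensity, 1426111_x_at, read 133.4, 103.1 and 73.3 in Runx1-KO-labelled arrays, against 247.7, 201.7 and 172.3 in Control. The groups did not overlap. On the log2 scale the difference was -1.03 ± 0.28 (SE, n = 3 per group), with a limma adjusted p of 0.268 and an exact two-sided permutation p of 0.1. A dimmer probe set, 1416898_a_at, also showed no overlap and was at least 1.53-fold lower, with 1 of 3 Runx1-KO-labelled arrays above background. Another, 1438721_a_at, read 82.0, 134.0 and 99.3 in Runx1-KO-labelled arrays, against 96.8, 80.7 and 112.1 in Control, with overlap and a log2 difference of 0.11 ± 0.27. The last was above background in 1 of 6 arrays. With the mean of all 4 the log2 difference was -0.51 (limma adjusted p = 0.405), so the lower level of Irf3 holds for some of its probe sets and not for others. In the naming of these arrays the letter x marks probe sets in which some probes can match other transcripts.

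The Irf3 start region is shown because it held the only RUNX match at the first annotated start of the 4 members that were lower without overlap. Capitals mark that match.
Irf3, chr7:44997398-44997697, plus strand: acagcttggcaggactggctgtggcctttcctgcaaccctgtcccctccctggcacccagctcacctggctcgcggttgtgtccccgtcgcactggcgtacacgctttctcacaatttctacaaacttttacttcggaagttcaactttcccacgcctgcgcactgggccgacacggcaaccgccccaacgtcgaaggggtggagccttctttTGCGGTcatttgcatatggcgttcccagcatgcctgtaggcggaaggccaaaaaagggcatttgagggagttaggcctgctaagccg
The match, TGCGGT, began at position -37. Irf5 had 1 such match too, at -83, and its groups overlapped. The 2 windows of Irf9 and those of Irf4 and Irf7 held no match to any of the motifs searched.

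Irf5, a driver of inflammatory cytokine genes in macrophages, overlapped between the groups. It read 230.2, 286.0 and 224.4 in Runx1-KO-labelled arrays, against 220.7, 242.6 and 240.4 in Control, a log2 difference of 0.07 ± 0.19 (limma adjusted p = 0.910, 95% interval -0.39 to 0.52). By this probe set Irf5 was the steadiest of the members above background, with an SD of 0.14 on the log2 scale over all 6 arrays, against 1.06 for Irf2. Its second probe set varied more, at 104.2, 251.9 and 161.6 in Runx1-KO-labelled arrays, against 274.5, 148.0 and 251.2 in Control. The log2 difference there was -0.42 ± 0.41 with overlapping groups.

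Irf7, the amplifier of interferon alpha production and itself strongly induced by interferon, was not above the background limit in Runx1-KO-labelled arrays. It read 5.59, 7.88 and 2.37 there, against 6.93, 15.6 and 5.19 in Control, of which 1 array, Control 2, was just above its limit of 14.1. No fold can be stated, and the groups overlapped.

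Irf9, which carries the type I interferon signal to DNA, was modestly lower. Its intensity was 59.2, 40.6 and 57.4 in Runx1-KO-labelled arrays, against 133.6, 77.2 and 74.5 in Control. The groups did not overlap, but Control 2 and 3 stood closer to Runx1-KO 1 and 3 than to Control 1. The log2 difference was -0.83 ± 0.31 (SE, n = 3 per group; limma adjusted p = 0.355; exact two-sided permutation p = 0.1), and -0.55 without Control 1. Control 1 is also the array with the high erythroid markers, and the part of these in the Irf9 level was not tested.

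**Figure D2:**
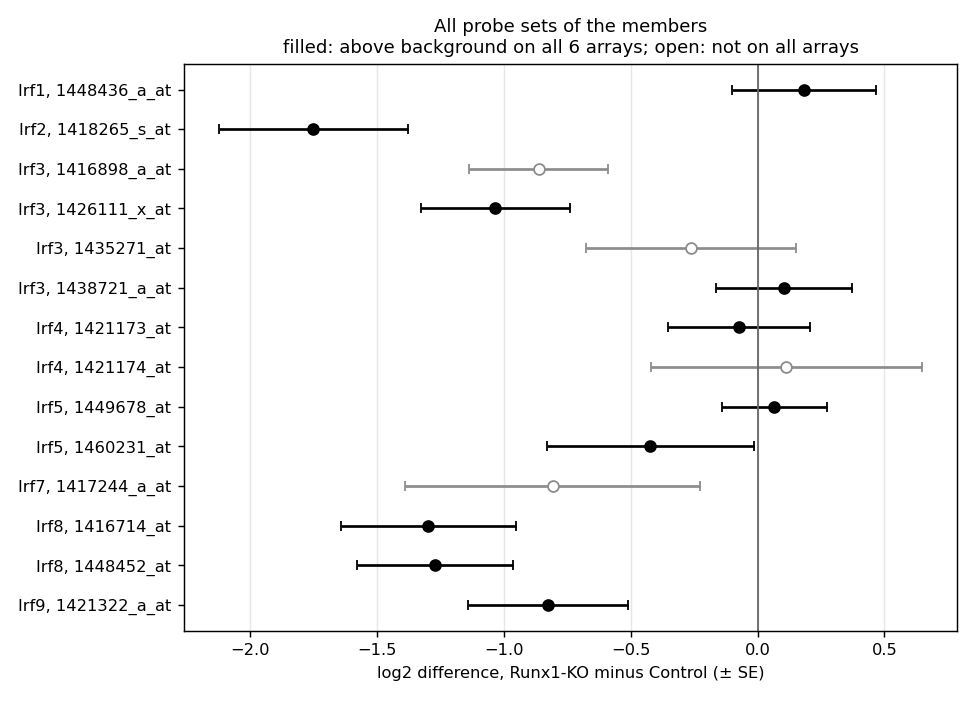
Log2 difference, Runx1-KO minus Control, with its standard error for each of the 14 probe sets of the members, from the fit over all probe sets. Filled points were above the background limit on all 6 arrays. Both Irf8 probe sets lie near -1.3, while those of Irf3 run from -1.03 to 0.11.

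Genes of nearest pattern were sought for Irf2, Irf8 and Irf3, which varied most over the arrays among the 7 members above background on all of them, among 9701 other genes above background on all 6 arrays. Likeness was the root mean square distance between log2 levels centred on each gene's own mean over the 6 arrays, so the difference between the groups, in which sex runs with genotype, enters every distance. Nearest to Irf2 were Mitf, a transcription factor of macrophages, mast cells and melanocytes (distance 0.24), and C1qb, a subunit of complement C1q made by macrophages (0.24). C1qb read 57.8, 50.7 and 24.7 in Runx1-KO-labelled arrays, against 184.9, 80.2 and 153.8 in Control. Nearest to Irf8 were Pelo, a ribosome rescue factor (0.20), and Ms4a6c, a membrane protein of monocytes (0.22). Ms4a6c read 506.4, 272.7 and 409.3 in Runx1-KO-labelled arrays, against 839.3, 775.3 and 954.0 in Control. Nearest to Irf3 were Nemp2 (0.092), a nuclear envelope protein, and Trappc1 (0.11), a subunit of a vesicle tethering complex. As their likeness to these members fixes, all 6 genes were lower without overlap in Runx1-KO-labelled arrays, and 0 passed over all genes in limma.

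**Figure D3:**
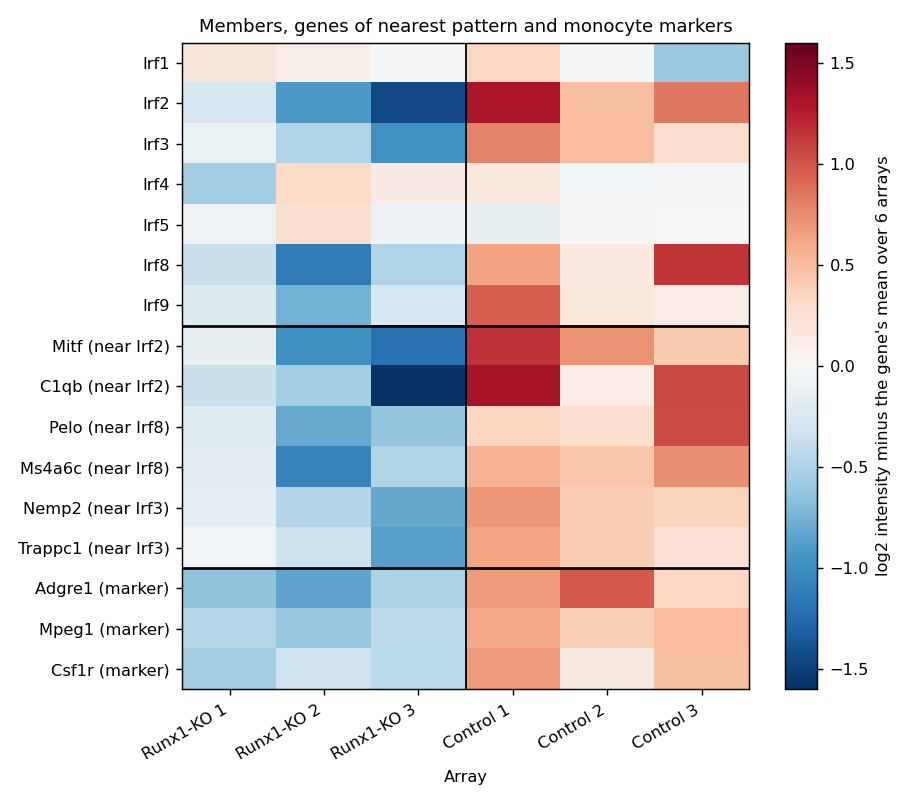
Log2 intensity in each array minus the gene's mean over the 6 arrays, for the 7 members above background on all arrays, the 6 genes of nearest pattern and 3 monocyte and macrophage markers. The 3 markers, Adgre1, Mpeg1 and Csf1r, were all lower without overlap and do not stand for the whole list. Of its 16 measured markers 2, Fcgr1 and Cx3cr1, had a log2 difference above 0 (0.45 and 0.19). Red is above and blue below the gene's mean. Irf2, Irf3, Irf8 and Irf9 are blue in the 3 Runx1-KO-labelled arrays and red in the 3 Control arrays, unlike Irf1, Irf4 and Irf5.

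Markers of monocytes and macrophages, cells in which Irf8 is normally high, lay mostly below 0. Of 16 measured markers 14 had a difference below 0, 8 had an unadjusted p under 0.05 and 7 were lower without overlap, with a median log2 difference of -0.73, while 0 passed over all genes in limma. Over all genes 7.01% were lower and 5.62% higher at that p, and 11.7% were lower without overlap. The summed intensity of the 16 markers was 6605.7 to 6980.7 in Runx1-KO-labelled arrays, against 9006.5 to 12903.7 in Control, and C1qa was below background on all arrays. Of 11 mature neutrophil markers 11 had a difference above 0 and 0 passed over all genes in limma. At an unadjusted p under 0.05 there were 8 higher, or 5 without Runx1-KO 1, with a median of 1.41 and a summed intensity of 16578.3 to 19169.8 in Runx1-KO-labelled arrays, against 8626.3 to 13283.0 in Control. Of 15 dendritic cell markers 7, among them Xcr1 and Siglech, were below background on all arrays. Of the 15, 10 had a difference below 0 and 5 above. At an unadjusted p under 0.05 there were 1 lower and 1 higher, and 0 passed over all genes in limma. The median was -0.25, or -0.09 without Control 1. The sum over the list was 448.9 to 555.7 in Runx1-KO-labelled arrays, against 630.4 to 1537.0 in Control. The highest sum was that of Control 1, in which 8 of the 15 markers were highest. Of 20 T and NK cell markers 6, among them Cd4 and Gata3, were below background on all arrays. Of the 20, 15 had a difference below 0 and 5 above. Without overlap there were 10 lower and 1 higher, against 11.7% and 9.17% of all genes. At an unadjusted p under 0.05 there were 9 lower and 1 higher, or 5 lower and 2 higher without Control 1, and 0 passed over all genes. Their sums overlapped, at 692.3 to 1124.3 in Runx1-KO-labelled arrays, against 962.6 to 1049.1 in Control. Of 16 B and plasma cell markers 12 had a difference above 0 and 4 below, with Pax5 and Rag1 below background on all arrays. Without overlap there were 3 higher and 1 lower. At an unadjusted p under 0.05 there were 2 higher and 1 lower, and 0 passed over all genes in limma. B and plasma cell sums also overlapped, at 1225.1 to 2132.7 in Runx1-KO-labelled arrays, against 1196.1 to 2496.9 in Control. The part of these cells in the levels of Irf2, Irf3, Irf8 and Irf9 was not tested.

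Genes known to be activated by IRF8 with PU.1 lay mostly below 0. Of 22 measured genes, 17 had a difference below 0 and 5 above, 0 passed over all genes in limma, and 3 were lower at an unadjusted p under 0.05 and 0 higher. Without Runx1-KO 1 these counts were 5 lower and 1 higher. The list holds 1 member of the family, Irf7. Its median log2 difference was -0.40, or -0.33 without Control 1 and -0.31 without Runx1-KO 1. Naip2, a sensor of bacterial secretion systems, read 284.3, 244.0 and 206.7 in Runx1-KO-labelled arrays, against 535.9, 517.4 and 463.6 in Control, a log2 difference of -1.05 ± 0.20 (limma adjusted p = 0.179). Csf1r, which encodes the receptor that drives macrophage growth, was 1.83-fold lower and Ly86, a partner of the Toll-like receptor homologue CD180, 1.85-fold lower, both without overlap. Csf1r, Cd68 and Cx3cr1 are also among the monocyte and macrophage markers above.

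Partner factors of the family stood on both sides of 0. Of 18 measured partners and co-repressors 10 had a difference above 0 and 8 below, with 2 lower and 2 higher at an unadjusted p under 0.05, a median of 0.08 and 0 past over all genes in limma. Without Control 1 there was 1 lower and the median was 0.13, and without Runx1-KO 1 it was 0.17. Id2, an inhibitor of E proteins needed for dendritic cell development, read 448.8, 1177.9 and 616.0 in Runx1-KO-labelled arrays, against 365.7, 150.5 and 227.3 in Control, and was 2.96-fold higher without overlap. Bcl6, a repressor that antagonises several programmes driven by Irf4, was 2.04-fold higher and Tcf3, an E protein, 1.88-fold lower, both without overlap, although 1 of the 3 Tcf3 probe sets had the opposite sign. Spi1, which encodes PU.1, overlapped between the groups, with a log2 difference of 0.31 ± 0.25 (limma adjusted p = 0.637). The co-repressor Irf2bp2, which binds Irf2, had a log2 difference of -0.05.

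Genes upstream of Irf3, Irf5 and Irf7 showed little shift as a list. Of 24 measured sensors, adaptors and kinases 15 had a difference below 0, 2 were lower and 1 higher at an unadjusted p under 0.05, and 0 passed over all genes in limma, with a median of -0.15. Unc93b1, the chaperone that carries nucleic acid-sensing Toll-like receptors to endosomes, read 98.7, 65.7 and 74.2 in Runx1-KO-labelled arrays, against 146.0, 132.8 and 133.7 in Control. Slc15a4, an endolysosomal transporter needed for signalling through Irf5 and Irf7, was 1.85-fold lower, and the ubiquitin ligase gene Traf6 was 1.63-fold higher, both without overlap. Interferon receptors and their JAK-STAT partners had a median of 0.04, with 1 of 17 lower and 1 higher at an unadjusted p under 0.05 and 0 past over all genes. Without Runx1-KO 1 the median was 0.25, with 2 lower and 3 higher, and without Control 1 it was 0.08, with 0 lower and 1 higher. The one lower with all arrays was Ptpn6, a phosphatase that restrains JAK signalling, at 1.56-fold. Jak2 and Stat3 were 1.45-fold and 1.27-fold higher and did not pass at an unadjusted p under 0.05. Of 9 measured interferon genes 6 were below background in both groups. Of these, Ifng and Ifna9, named after their values were seen, were the 2 lower at an unadjusted p under 0.05, a count that was 0 without Runx1-KO 1 and 1 without Control 1. Of the 9 genes 2 were lower and 1 higher without overlap, and 0 passed over all genes. Ifnz and Ifna1, named among the rest, overlapped between the groups.

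Targets of the other members did not give a called difference either. Of 28 genes activated by IRF9, 22 had a difference below 0, 1 was lower at an unadjusted p under 0.05 and 0 passed over all genes in limma, with a median of -0.36. Without Runx1-KO 1 the median was -0.46 with 3 lower, and without Control 1 it was -0.19 with 1 lower. The one lower with all arrays was Ifi35, an interferon-induced leucine zipper protein, at 497.2, 519.6 and 448.9 in Runx1-KO-labelled arrays, against 956.9, 1039.3 and 736.5 in Control. Zbp1 and Trim30a, also interferon-induced, overlapped between the groups, and 1 of the 2 Zbp1 probe sets had the opposite sign. Of 24 genes activated by IRF1, 19 had a difference below 0, with 2 lower at an unadjusted p under 0.05 and a median of -0.22, or 3 lower and 1 higher without Runx1-KO 1 or without Control 1, and Irf1 itself overlapped between the groups. The immunoproteasome gene Psmb8 was 1.63-fold lower by its brightest probe set but lower in 1 of its 2 probe sets only, and Il15, a growth factor of NK cells, was at least 1.73-fold lower with 1 of 3 Runx1-KO-labelled arrays above background. Psmb10, another immunoproteasome gene, was 1.34-fold lower without overlap.

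Targets of Irf5 were few and varied widely. Of 10 measured genes 7 had a difference below 0, 3 were lower at an unadjusted p under 0.05 and 0 passed over all genes in limma. The median of -0.74 came to -0.23 without Control 1. The chemokine genes Ccl3 and Ccl5 were 3.56-fold and 2.88-fold lower and Ccl4 at least 2.43-fold lower, all without overlap, while Irf5 itself overlapped between the groups. Ccl3 read 865.8 in Runx1-KO 1 and 160.6 and 220.6 in the other Runx1-KO-labelled arrays, against 899.0 to 1555.6 in Control. For Irf4, 16 measured targets had a median of 0.25, with 3 higher and 3 lower at an unadjusted p under 0.05 and 0 past over all genes in limma. Kdm6b, a histone demethylase, was 1.58-fold higher by its brightest probe set, although the remaining 2 of its 3 probe sets had the opposite sign, Retnla at least 2.81-fold higher with all Control arrays below background, and the mannose receptor gene Mrc1 at least 1.83-fold lower.

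**Figure D4:**
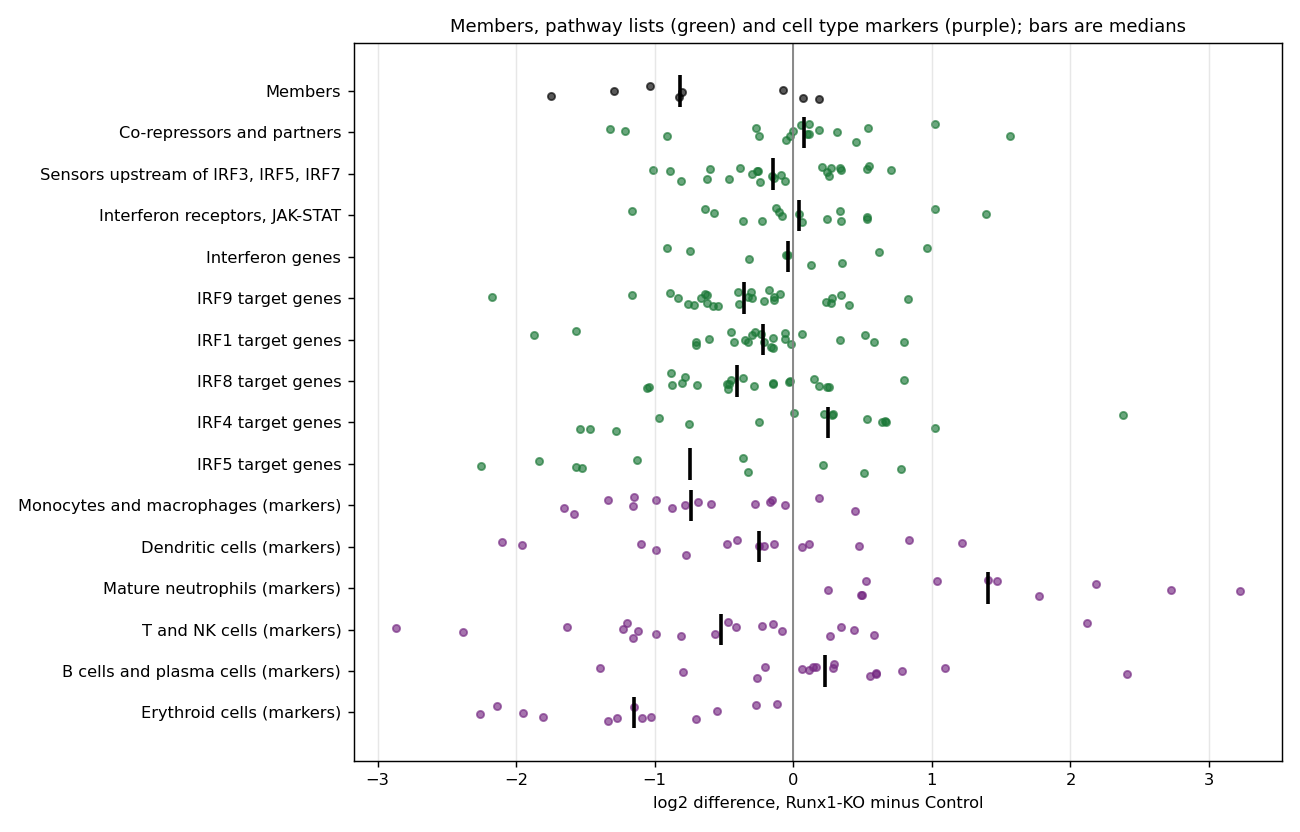
Log2 difference, Runx1-KO minus Control, of each measured gene in the members, the 9 pathway lists (green) and the 6 lists of cell type markers (purple), with 1 point per gene and a bar at the median. The medians run from -0.82 for the members and -1.15 for erythroid markers, which rest on Control 1, to 1.41 for mature neutrophil markers. The median of the members rests in part on Irf7, which was near or below background.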

How the data were processed

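Total RNA of 6 leukemias was labelled with biotin after cDNA synthesis with a NuGEN Ovation kit, per the labels' protocols, and hybridised to 1-colour Affymetrix mouse arrays. The deposited values were linear intensity values per probe set, 45101 in all, already on a common scale. Values below 1 were raised to 1 here. How the authors summarised and normalized them, detection calls and scan dates are not given in the sources used here. Gene symbols came from the platform annotation. After 64 control probe sets were left out, probe sets with 1 symbol gave 18193 genes, each read by its probe set of highest mean log2 intensity.

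On the log2 scale the groups were set against each other by limma's moderated test (version 3.58.1, R 4.3.3), two-sided and without covariates or a filter. P-values were adjusted by Benjamini-Hochberg over all genes, and in a second fit over all probe sets, with a threshold of 0.05. The code was tested on simulated data. Differences are Runx1-KO minus Control with the moderated standard error. Where arrays of the lower group lay at or below background, the fold is a bound, with those arrays raised to their limits, and is written as at least that value. Exact permutation tests used all 20 assignments of arrays.

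The members, the 9 pathway lists and the 6 marker lists were chosen with earlier results of these data known. From each pathway list the genes past the threshold were named, or else the 3 of lowest p above background on at least 3 arrays. Spi1, Irf2bp2 and genes of array checks were named after their values were seen. The sources used here name no pairing of equally numbered arrays of the 2 groups. Correlations of their deviations ran from -0.09 to 0.04 across genes, which cannot show whether such arrays shared a batch. Alternatives were other scalings, an offset, a filter, probe set averaging, other variance models, array weights, a replicate block and leaving out arrays.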

Additional observations from a re-analysis of the deposited data

How the results depend on the processing

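The number of members past the threshold stayed at 0 under 15 alternatives with 1 probe set per gene (lowest adjusted p 0.063, with array weights) and under 14 with all probe sets (lowest 0.0792, with a variance trend). With the replicate block it was 0 of 8 and 0 of 14, and the lowest adjusted p was 0.338 and 0.428. The block is no test of pairing, since the sources used here name none. The number of all genes called was less stable, at 16, against 104 with a variance trend and robust fitting, 77 with array weights, 64 with an offset of 16, 62 among the brighter genes, 0 with the replicate block, 0 without both arrays numbered 1 and 2 or 3 without any 1 array. For all probe sets it was 31, against 203 with a variance trend, 91 with the offset, 78 among the brighter probe sets, 46 with array weights and 0 with the block or without both arrays numbered 1, and 4 to 9 without any 1 array. Irf2, Irf3, Irf7, Irf8 and Irf9 kept their direction in every alternative run, with log2 differences of -2.09 to -1.44, -1.26 to -0.51, -1.30 to -0.23, -1.54 to -1.05 and -0.98 to -0.55. Irf1 ran from -0.0637 to 0.395 without any 1 array, Irf4 from -0.25 to 0.18 and Irf5 from -0.0439 to 0.131. Irf4 also turned to 0.0389 with array weights, 0.0204 with the mean of its probe sets and 0.25 without both arrays numbered 1, and Irf5 to -0.0197 with array weights and -0.18 with the mean of its probe sets. The cause was not tested. Irf4 and Irf7 had no value among the brighter genes, and signal near background limits what Irf7 can show.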

Other observations

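Genes next to the members on the chromosome, taken by position from a RefSeq table after the members' values were seen, gave values of their own. Beside Irf3 lie Bcl2l12, a BCL2-like protein gene that starts close to it, and Scaf1. Bcl2l12 read 29.6, 32.5 and 31.95 in Runx1-KO-labelled arrays, against 40.2, 27.05 and 41.0 in Control, with overlap and a log2 difference of -0.18 ± 0.23. Scaf1 was at least 1.16-fold higher, without overlap, in the opposite direction to the brightest Irf3 probe set. Rnf31, a subunit of the linear ubiquitin ligase and the neighbour of Irf9, read 47.8, 27.8 and 25.3 in Runx1-KO-labelled arrays, against 47.8, 44.4 and 41.9 in Control, with overlap. Cox4i1, a cytochrome oxidase subunit gene beside Irf8, had a log2 difference of -0.36 ± 0.24, and Foxf1 on its other side one of 0.63 ± 0.39, both with overlap. Dusp22, a phosphatase gene beside Irf4, was 2.23-fold lower without overlap, at 42.3, 45.3 and 43.1 in Runx1-KO-labelled arrays, against 183.4, 49.8 and 100.1 in Control, while Irf4 overlapped between the groups. None of these neighbours passed over all genes in limma, and the lowest adjusted p was 0.386.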
